A study of Mus musculus with 9 samples.

Results

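The 76 genes described here carry symbols of mitochondrial ribosomal proteins, and none of them passed the test between podocytes of diabetic OVE26 mice and podocytes of normal FVB mice. All but Mrps36 encode proteins of the mitochondrial ribosome. They were taken as all genes whose symbol begins with Mrpl or Mrps followed by a digit, which gave 76 of the 18193 genes on the array, 47 with Mrpl symbols and 29 with Mrps symbols. Podocytes are the epithelial cells that cover the glomerular capillaries of the kidney. The study measured RNA of podocytes from 5 OVE26 and 4 FVB mice, 1 array per mouse, with both groups on the FVB strain and aged 3 to 4 months. The OVE26 mice are labelled diabetic with the genotype OVE-GFP, since an eGFP transgene carried by podocytes was crossed into the OVE26 line. As background, OVE26 mice become diabetic early in life because a calmodulin transgene under an insulin promoter damages their pancreatic beta cells. The FVB mice are labelled normal and wild type, and the sources used here do not say how their podocytes were made fluorescent for the sort, or which promoter drives eGFP.

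Mitochondria carry a small genome of their own, and its messenger RNAs, which encode core subunits of the respiratory chain and of ATP synthase, are read by a ribosome that works only inside the organelle. Its ribosomal RNAs come from mitochondrial DNA, whereas every one of its proteins is encoded in the nucleus, made in the cytosol and imported. The small subunit binds the messenger and decodes it, and the large subunit forms the peptide bonds and feeds the new protein into the inner membrane. Some of these proteins descend from bacterial ribosomal proteins, and others were added in mitochondria. In human patients, mutations in several of these genes cause combined defects of oxidative phosphorylation. Podocytes are long-lived cells with many foot processes, and mitochondrial disease in humans can involve the glomerulus.

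All values are log2 probe set intensities, and every difference is OVE26 minus FVB on that log2 scale. A probe set's signal depends on its own probes, so RNA levels were compared between mice and not between genes. Where genes are grouped by strong or weak signal, that orders probe sets and not amounts of RNA. Array medians over probe sets lay between 5.07 and 5.13 in OVE26 and between 5.08 and 5.15 in FVB. Pearson's r over probe sets was 0.960 to 0.985 among OVE26 arrays and 0.980 to 0.989 among FVB arrays. The 6 podocyte markers measured of 8 listed (Nphs1, Wt1, Ptpro, Synpo, Podxl and Cdkn1c) had mean signals from 10.51 to 12.99 in OVE26 and from 10.90 to 13.11 in FVB, so the labelled cell type had its markers in both groups, and 0 of the 6 passed the test by limma. Their median difference was -0.19, with 5 of 6 negative, and in 3 of them (Wt1, Synpo and Podxl) every OVE26 array lay below every FVB array. Over all genes, 476 of 18193 had every OVE26 array below every FVB array. Each array is labelled as a mouse of its own, and the number of arrays limits the precision. The RNA came from sorted pools of cells, in which fewer cells of a type and less RNA per cell cannot be told apart.

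The comparison asked whether the RNA of the mitochondrial ribosome differs between podocytes of diabetic and normal mice. Of the 76 genes, 0 were higher and 0 lower at an adjusted p under 0.05 (limma, adjusted over all genes), against 0.605% of all 18193 genes called (0.473% higher and 0.132% lower). At an unadjusted p under 0.05 there were 11 (9 higher, 2 lower), or 14.5%, against 15.1% of all genes. The median difference over the 76 genes was 0.09 (1.06-fold), against 0.01 over all genes, and single genes ran from -0.34 to 0.61. A positive difference was found for 49 of the 76 genes (64.5%), against 52.6% of all genes. That split depended on scaling. For scaling, array medians were taken over the 18193 genes and not, as above, over probe sets. With these array medians made equal 34 of 76 were positive, and with the cytosolic ribosomal protein mean made equal 31 were. The reason is that these scalings lowered the median of all genes by 0.10 and 0.14. Both scalings subtract the same value from every gene of an array, so the median of the 76 relative to all genes stayed at 0.07 by construction.

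On the brightest probe set of each gene, the 95% intervals of all 76 genes lay within a 2-fold change in either direction. The outermost bounds were -0.67 and 0.96, and 56 of the 76 intervals lay within 1.5-fold. Differences on the other probe sets ran from -0.98 (Mrpl57) to 0.58 (Mrps6), and their intervals were not computed. In 55 genes the difference was smaller than 0.25 in size. The median standard error was 0.14, and the median SD between mice was 0.21 in OVE26 and 0.18 in FVB. Signal was present in nearly all of them: 75 of the 76 were at or above the 40th percentile of all genes (5.03), the exception being Mrpl14.

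**Figure D1:**
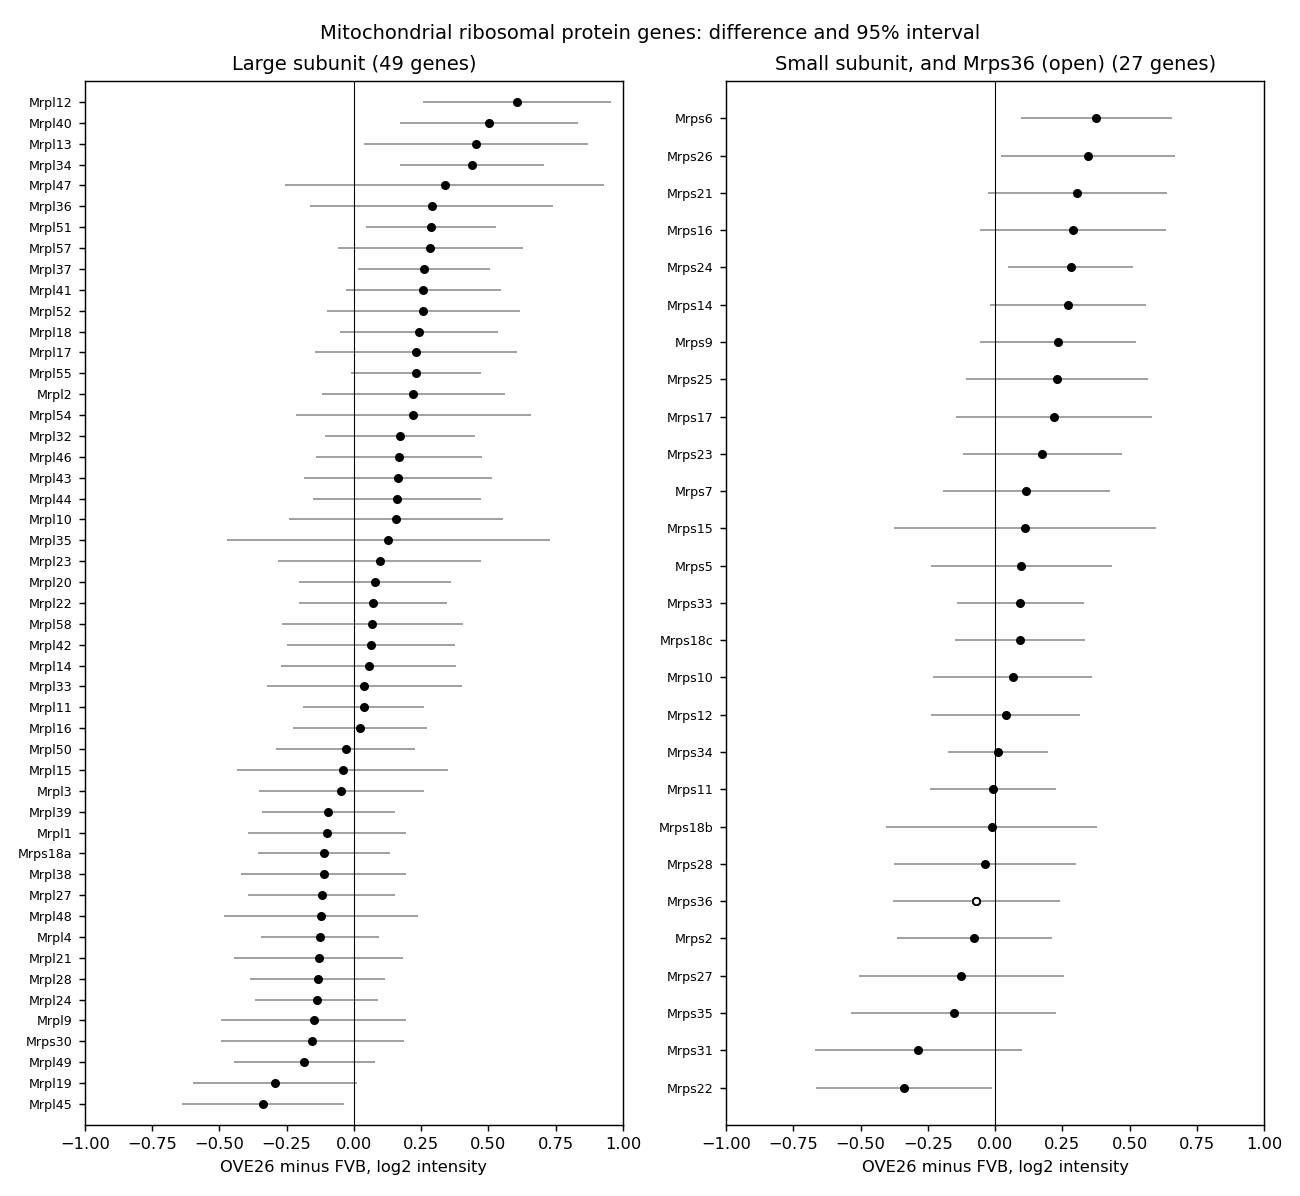
Difference in log2 intensity (OVE26 minus FVB, points) with its 95% interval (lines) for each of the 76 genes, sorted by size, with the large subunit on the left and the small subunit on the right. Mrps36, drawn as an open point, is not a ribosomal protein. Only the brightest probe set of each gene is drawn. On these, differences run from -0.34 to 0.61, most intervals cross 0, and none reaches beyond a 2-fold change.

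Placed by where the protein sits in the ribosome, 49 genes belonged to the large subunit and 26 to the small one. The large subunit had a median difference of 0.07 with 31 of 49 positive, and the small subunit a median of 0.09 with 18 of 26 positive. Proteins classed here as having a bacterial relative (46 genes) had a median of 0.09, and proteins classed as particular to mitochondria (29 genes) had a median of 0.07. Mrpl55 was counted in the first class, although that placing is doubtful. The 12 genes listed here as linked to human disease, which need not be all such genes, had a median of 0.14, with 8 positive and 4 negative.

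Mrpl12 had the smallest p of the 76. Its protein is the L7/L12 relative at the stalk of the large subunit, where translation factors dock, and it is also known to bind the mitochondrial RNA polymerase. Mrpl12 signals were 7.90, 8.09, 7.85, 7.69 and 7.93 in the OVE26 arrays, against 6.83, 7.58, 7.32 and 7.41 in the FVB arrays. Every OVE26 array lay above every FVB array, and FVB 1 was the lowest by a wide margin. The means were 7.89 ± 0.15 in OVE26 arrays (SD, n = 5) and 7.29 ± 0.33 in FVB arrays (SD, n = 4), a difference of 0.61 (1.52-fold, SE 0.16, limma adjusted p = 0.112, interval 0.26 to 0.96).

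Mrpl34 and Mrpl40, both of the large subunit, were the other genes whose groups did not overlap. Mrpl34, the relative of bacterial L34, had signals of 7.22, 7.46, 7.51, 7.44 and 7.72 in OVE26 arrays, against 6.97, 7.14, 6.88 and 7.14 in FVB arrays. The nearest arrays of the groups were OVE26 1 and FVB 2, which lay close together, and the difference was 0.44 (SE 0.12, limma adjusted p = 0.126). Mrpl40, a protein particular to the mitochondrial ribosome, had 8.37, 8.33, 7.98, 8.03 and 8.18 in OVE26 arrays and 7.27, 7.84, 7.84 and 7.75 in FVB arrays. Its difference was 0.50 (SE 0.15, limma adjusted p = 0.148), and FVB 1 was again far below the other FVB arrays. These 3 genes are 3.95% of the 76, all with OVE26 above, against 3.64% of all genes with OVE26 above and 6.26% with no overlap either way.

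Among the other genes with positive differences, the small subunit contributed Mrps6, Mrps24 and Mrps26. Mrps6, the relative of bacterial S6 on the platform of the small subunit, had 9.82, 9.83, 9.83, 10.04 and 9.62 in OVE26 arrays and 9.41, 9.72, 9.24 and 9.44 in FVB arrays. FVB 2 lay above OVE26 5, so the groups overlapped by 1 pair, and the difference was 0.38 (SE 0.13, limma adjusted p = 0.194). A second Mrps6 probe set, tested among all probe sets singly, differed by 0.58 (limma adjusted p = 0.0892). Mrps24, which lines the messenger channel as the relative of bacterial S3, had 9.22, 9.29, 9.28, 9.03 and 9.03 in OVE26 arrays and 8.86, 8.81, 8.86 and 9.03 in FVB arrays. The FVB arrays other than FVB 4 lay below all OVE26 arrays, with a difference of 0.28 (limma adjusted p = 0.236). Mrps26, a mitochondrial addition, had 7.82, 7.95, 8.04, 8.07 and 7.89 in OVE26 arrays and 7.23, 7.50, 7.93 and 7.78 in FVB arrays. FVB 3 reached into the OVE26 range while FVB 1 was lowest, and the difference was 0.34 (limma adjusted p = 0.301).

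In the large subunit, Mrpl51, Mrpl13, Mrpl37 and Mrpl55 had positive differences of 0.23 to 0.45. Mrpl13, the relative of bacterial L13, had 8.39, 9.19, 8.58, 8.55 and 8.43 in OVE26 arrays and 7.90, 8.03, 8.29 and 8.48 in FVB arrays. OVE26 2 stood apart at the top, and the difference was 0.45 (SE 0.19, limma adjusted p = 0.290). Mrpl51, a mitochondrial addition, had 10.35, 10.44, 10.37, 10.11 and 10.31 in OVE26 arrays and 9.86, 9.97, 10.17 and 10.12 in FVB arrays. Here OVE26 4 lay inside the FVB range, and the difference was 0.29 (limma adjusted p = 0.251), yet the other 2 Mrpl51 probe sets, of weaker signal, differed by -0.50 and -0.49. Mrpl37, which like Mrps30 is a mitochondrial addition to the large subunit, had 6.97, 7.04, 6.87, 6.68 and 6.70 in OVE26 arrays and 6.70, 6.47, 6.60 and 6.59 in FVB arrays. Mrpl55 had 6.96, 7.02, 7.09, 7.32 and 6.96 in OVE26 arrays and 6.73, 6.96, 6.82 and 6.85 in FVB arrays. Their differences were 0.26 (limma adjusted p = 0.301) and 0.23 (limma adjusted p = 0.352), and in each of them a single FVB array reached the OVE26 range.

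Mrpl45 and Mrps22 were the 2 genes with negative differences at an unadjusted p under 0.05. Mrpl45, which sits at the exit of the peptide tunnel and helps hold the ribosome to the inner membrane, had 6.16, 5.90, 5.97, 5.999 and 6.08 in OVE26 arrays and 6.72, 6.28, 6.37 and 6.07 in FVB arrays. FVB 4 lay within the OVE26 range and FVB 1 was the highest of all 9. The difference was -0.34 (SE 0.13, limma adjusted p = 0.274). Mrps22, a mitochondrial addition to the small subunit that is mutated in human mitochondrial disease, had 8.17, 8.37, 8.14, 7.63 and 8.02 in OVE26 arrays and 8.49, 8.24, 8.46 and 8.44 in FVB arrays. OVE26 4 was the lowest and OVE26 2 reached above FVB 2, with a difference of -0.34 (SE 0.15, limma adjusted p = 0.313).

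**Figure D2:**
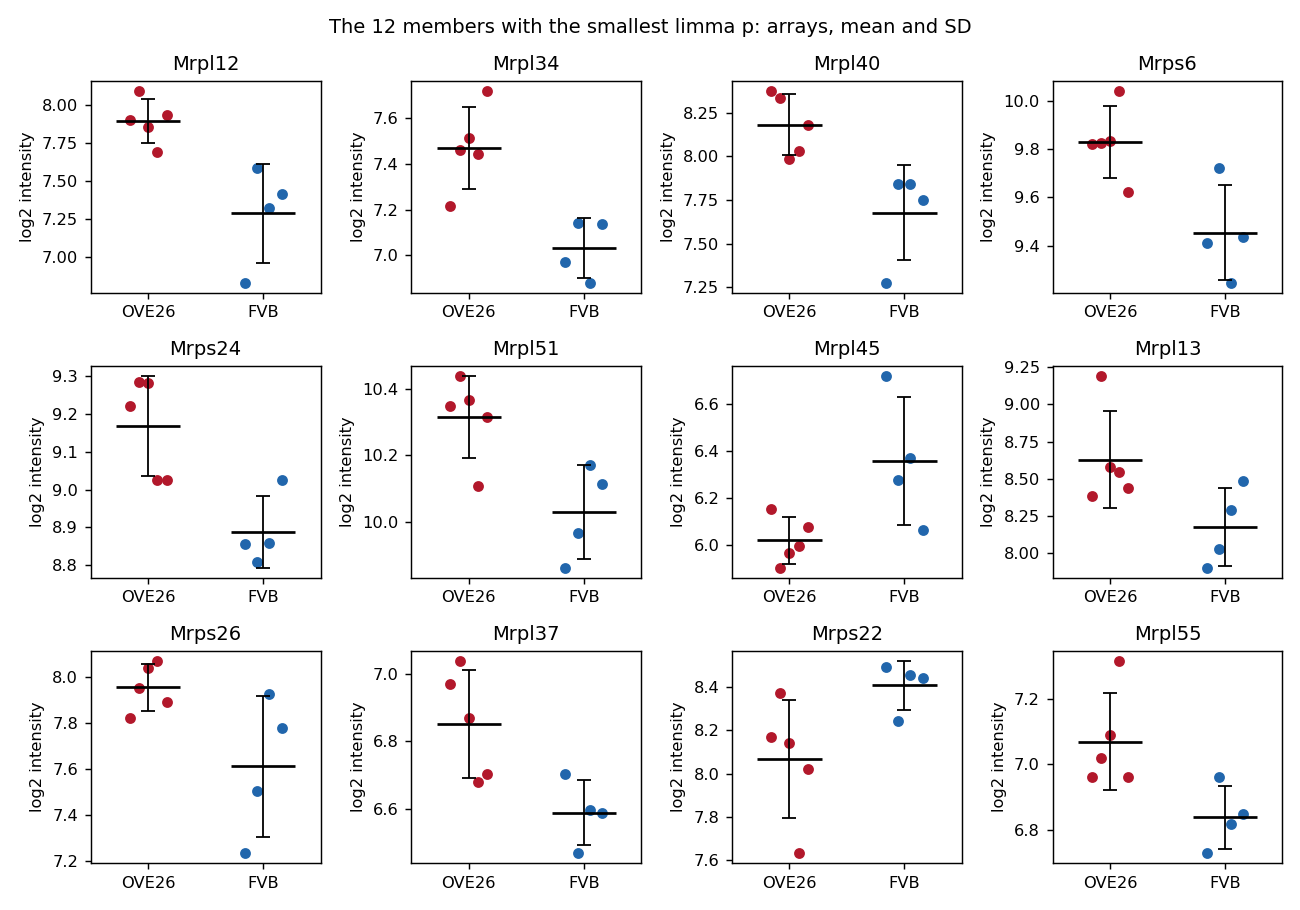
Log2 intensity on each array for the 12 genes with the smallest p, with OVE26 (red, 5 arrays) left of FVB (blue, 4 arrays), bars at the mean and error bars of 1 SD. Each panel has its own scale. The groups are separate in Mrpl12, Mrpl34 and Mrpl40 and overlap in the other 9.

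Promoters of these genes are shown because nuclear genes for mitochondrial proteins are known for binding sites of NRF1, of ETS factors such as GABP and of YY1. RefSeq promoters (GRCm38.p6, 250 bases before to 50 after the start) were found for 67 of the 76 genes, on 16 chromosomes. The letters of the ETS core, CCGGAAG, occurred on either strand in 24 of 67 (35.8%), against 13.8% of 14452 promoters of genes on the array. The NRF1 letters (GCGC and TGCGC with any 1 base between them) occurred in 12 of 67 (17.9%) against 8.0%, and the YY1 letters AAGATGGCG in 8 of 67 (11.9%) against 2.3%. At least 1 of the 3 was present in 38 promoters (56.7%), against 21.7% on the array. The ETS core and the YY1 letters can overlap by the bases AAG. The 3 other sequences searched the same way showed no such excess in these shares. The CCAAT box stood at 38.8% against 38.2%, the TATA box (TATAAA) at 6.0% against 9.9% and the E-box (CACGTG) at 7.5% against 9.0%. Base composition was close, with a median GC content of 58.3% against 58.7%. Such matches are letters in a window and were not tested as sites.

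The 100 bases before the start are given for the genes with NRF1 letters or the ETS core there, among the 12 with the smallest p. YY1 letters were not used to choose these genes and are not marked. The bases run in gene orientation from 5′ to 3′, with the matching letters in capitals. The capitals mark NRF1 letters in Mrpl12 and Mrpl45 and the ETS core in the other 4, with the match on the reverse strand in Mrpl45 and Mrps26. Positions are chr11:120484537-120484636 on the plus strand for Mrpl12, chr8:71464826-71464925 on the plus strand for Mrpl34, chr6:125192100-125192199 on the plus strand for Mrpl51, chr11:97315616-97315715 on the plus strand for Mrpl45, chr2:130563657-130563756 on the plus strand for Mrps26 and chr9:98601680-98601779 on the minus strand for Mrps22.
Mrpl12: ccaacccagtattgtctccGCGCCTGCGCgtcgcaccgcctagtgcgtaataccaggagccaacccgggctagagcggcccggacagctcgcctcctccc
Mrpl34: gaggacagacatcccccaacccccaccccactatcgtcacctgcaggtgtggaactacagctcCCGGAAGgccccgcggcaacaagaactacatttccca
Mrpl51: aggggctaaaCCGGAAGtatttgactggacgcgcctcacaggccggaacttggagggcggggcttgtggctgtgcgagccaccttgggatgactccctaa
Mrpl45: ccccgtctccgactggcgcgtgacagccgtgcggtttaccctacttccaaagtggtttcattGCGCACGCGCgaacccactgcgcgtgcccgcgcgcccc
Mrps26: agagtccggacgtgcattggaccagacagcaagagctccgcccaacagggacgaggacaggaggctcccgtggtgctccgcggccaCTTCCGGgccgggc
Mrps22: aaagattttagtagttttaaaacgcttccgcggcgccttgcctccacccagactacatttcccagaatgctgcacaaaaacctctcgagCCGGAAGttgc

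The letters begin 81 bases before the start in Mrpl12, 38 in Mrpl45, 37 in Mrpl34, 90 in Mrpl51, 14 in Mrps26 and 11 in Mrps22. These 6 genes include both those with negative differences and those with positive ones. Over all 67 genes, the median difference was 0.20 in the 12 with NRF1 letters, 0.09 in the 24 with the ETS core and 0.10 in the 8 with YY1 letters. In the 29 genes with none of the 3 it was 0.10.

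**Figure D3:**
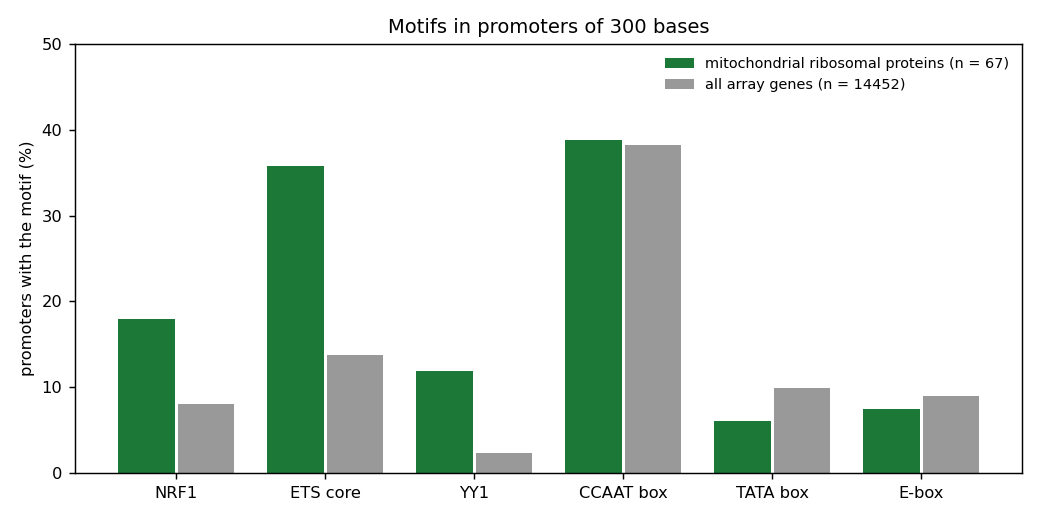
Percentage of promoters of 300 bases that hold each sequence on either strand, for mitochondrial ribosomal protein genes (green, 67) and for all array genes with a promoter (grey, 14452). The ETS core, NRF1 and YY1 letters are in a larger share of the green set, at 35.8%, 17.9% and 11.9%.

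Some symbols do not tell where the protein works. Mrps30 and Mrps18a carry small subunit symbols, but their proteins sit in the large subunit. Mrps30 had 7.51, 7.59, 7.70, 8.22 and 7.67 in OVE26 arrays and 7.92, 7.76, 8.07 and 7.81 in FVB arrays, a difference of -0.15 (limma adjusted p = 0.707). OVE26 4 alone lay above the FVB arrays, and the other 4 OVE26 arrays lay below them. Mrps18a differed by -0.11 (limma adjusted p = 0.708), whereas Mrps18b and Mrps18c, its relatives in the small subunit, differed by -0.01 and 0.09 (limma adjusted p = 0.985 and 0.763). Mrps36 is now known as a component of the 2-oxoglutarate dehydrogenase complex of the citric acid cycle. It averaged 8.33 ± 0.18 in OVE26 arrays (SD, n = 5) and 8.40 ± 0.22 in FVB arrays (SD, n = 4), with a difference of -0.07 (limma adjusted p = 0.876).

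Genes known from human mitochondrial disease did not share a direction. Mrps16, the relative of bacterial S16, had 7.80, 7.22, 7.43, 7.42 and 7.32 in OVE26 arrays and 6.95, 6.91, 7.29 and 7.44 in FVB arrays, a difference of 0.29 (limma adjusted p = 0.425). FVB 1 and FVB 2 lay below every OVE26 array, and FVB 3 and FVB 4 lay within their range. Mrpl44, a ribonuclease III-like protein of the large subunit, differed by 0.16 (limma adjusted p = 0.654), and Mrpl3, near the peptidyl transferase centre, differed by -0.05 (limma adjusted p = 0.925). The other Mrpl3 probe sets, of weaker signal, differed by -0.12, -0.74 and -0.37 (limma adjusted p = 0.7244, 0.1675 and 0.1953, each tested singly). Mrps34 was the flattest, at 6.59 ± 0.02 in OVE26 arrays (SD, n = 5) and 6.58 ± 0.06 in FVB arrays (SD, n = 4), with a difference of 0.01 (limma adjusted p = 0.974).

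Of the 6 genes of strongest signal, 4 differed by under 0.10 in size. Mrpl39 averaged 10.72 ± 0.17 in OVE26 arrays (SD, n = 5) and 10.82 ± 0.08 in FVB arrays (SD, n = 4) (difference -0.09), and Mrps18c, Mrps33 and Mrpl42 differed by 0.09, 0.09 and 0.06. Mrpl52 and Mrpl51, the other 2 of the 6 strongest, differed by 0.26 (limma adjusted p = 0.500) and 0.29. At the weak end, Mrpl14 averaged 4.84 ± 0.28 in OVE26 arrays (SD, n = 5) and 4.79 ± 0.07 in FVB arrays (SD, n = 4). Mrpl38, Mrpl54 and Mrpl36 differed by -0.11, 0.22 and 0.29, with limma adjusted p from 0.559 to 0.775, and Mrpl45 and Mrps34 complete the 6 weakest.

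Spread between mice of the same group was large in a few genes. In OVE26 the largest SDs were those of Mrpl35 (0.48), Mrpl54 (0.39), Mrps15 (0.37) and Mrpl47 (0.33). Mrpl35, the relative of bacterial L35, had 7.08, 6.39, 7.18, 7.59 and 7.56 in OVE26 arrays and 6.67, 6.66, 7.41 and 7.38 in FVB arrays. Its FVB arrays formed a low pair, FVB 1 and FVB 2, and a high pair, FVB 3 and FVB 4. Mrpl47 had the largest FVB spread, with 7.36, 7.61, 7.52, 6.81 and 7.57 in OVE26 arrays and 6.34, 6.83, 7.62 and 7.36 in FVB arrays. The same pair of FVB arrays was low, and OVE26 4 was the low OVE26 array. In Mrps18b, with 8.54, 8.82, 8.75, 8.75 and 8.66 in OVE26 arrays and 9.01, 8.12, 8.93 and 8.81 in FVB arrays, FVB 2 alone was low.

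Such a split among the FVB mice was seen in a minority of the family. FVB 1 and FVB 2 both lay below FVB 3 and FVB 4 in 27 of the 76 genes (35.5%), against 18.8% of all genes, and both lay above them in 6, against 13.7% of all genes. The lowest FVB array was FVB 1 or FVB 2 in 59 genes (77.6%), against 57.4% of all genes. These shares were not tested. Among OVE26 arrays, OVE26 4 was the lowest in 32 of the 76 genes. The share over all genes was not computed, so that count is not read as a trait of the family. The mean of the 76 genes, each centred over the 9 arrays, was 0.076, 0.077, 0.011, -0.046 and 0.069 in OVE26 arrays and -0.117, -0.122, 0.030 and 0.021 in FVB arrays. OVE26 4 thus lay below FVB 3 and FVB 4, while the other OVE26 arrays apart from OVE26 3 lay above all FVB arrays. The means were 0.038 ± 0.054 in OVE26 (SD, n = 5) and -0.047 ± 0.084 in FVB (SD, n = 4). The large and the small subunit followed each other from array to array, at 0.062, 0.099, 0.022, -0.055 and 0.062 in OVE26 arrays, against -0.125, -0.126, 0.035 and 0.026 in FVB arrays, for the large one. The small subunit gave 0.106, 0.046, -0.003, -0.029 and 0.077 in OVE26 arrays, against -0.099, -0.124, 0.023 and 0.002 in FVB arrays.

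**Figure D4:**
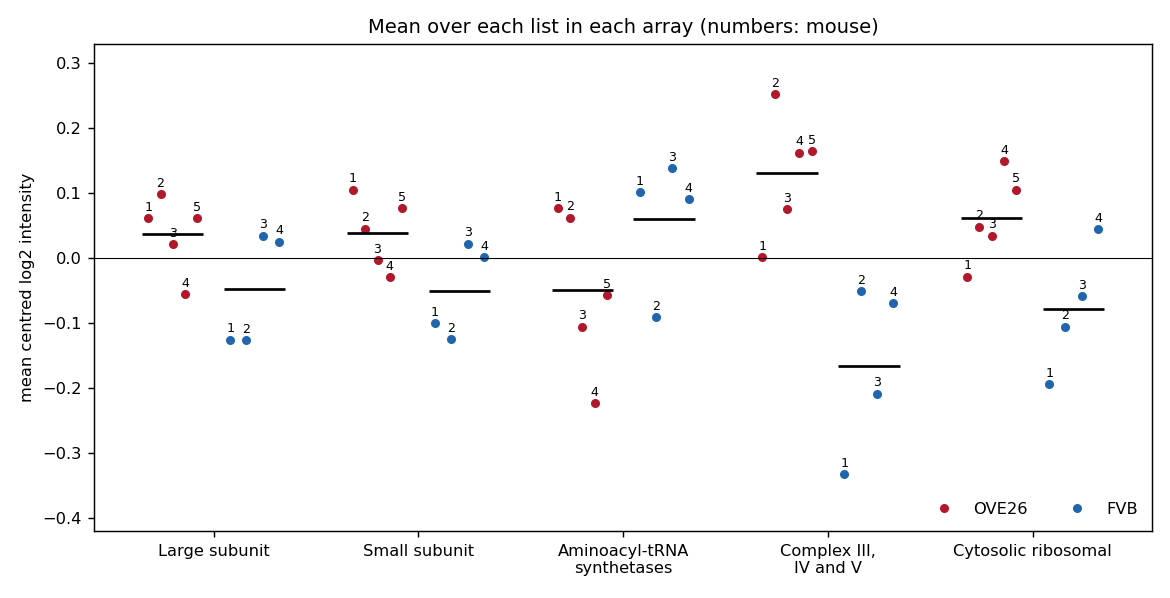
Mean centred log2 intensity of each gene list on each array, with OVE26 (red) left of FVB (blue), numbers naming the mouse and bars the group mean. Both ribosomal subunits are low in FVB 1 and FVB 2 and, within OVE26, lowest in OVE26 4. Complexes III, IV and V separate the groups, with OVE26 arrays from 0.002 to 0.253 and FVB arrays from -0.332 to -0.050.

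Podocyte markers, markers of other cell types and the sex of the mice moved across the same arrays, and their part in these values was not tested. Podocyte markers had a mean centred signal of -0.262 to 0.134 in OVE26 and 0.004 to 0.242 in FVB arrays. Markers of the loop of Henle, distal tubule and collecting duct (16 of 17 measured, 16 with a positive difference, 3 passing the test) had a mean centred signal of 0.278 to 1.624 in OVE26 and -1.540 to -0.027 in FVB arrays. Macrophage markers (12 of 13 measured, 11 positive, 0 passing, 4 at or above the 40th percentile) ranged from -0.193 to 0.689 in OVE26 and from -0.565 to -0.346 in FVB. Proximal tubule markers had their lowest value, -1.480, in OVE26 2. Xist was high, at 10.99 to 11.57, in OVE26 2, OVE26 3, OVE26 5 and FVB 2, and 3.01 to 4.54 in the others. With a sex covariate the median difference of the 76 genes was 0.10. The FVB 1 and FVB 2 arrays, both low for the family, differ in Xist.

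Probe sets of one gene did not always run the same way. The array holds 156 probe sets for the 76 genes, 34 genes have 1 and 42 have several. In 32 genes at least 2 probe sets had a mean at or above 5.03, and in 20 of these they ran in both directions, while in 12 they ran the same way. Mrpl19, the relative of bacterial L19, differed by -0.29 on the probe set used and by 0.53 and -0.20 on 2 others. Mrpl57 differed by 0.28 on the one used, with a mean of 8.29, and by -0.98 on a weaker one with a mean of 5.44. Mrps25 differed by 0.23, -0.61 and -0.21, and Mrpl50 by -0.03 and 0.33. In Mrpl34 both ran the same way (0.44 and 0.57). Mrpl15 has 8 probe sets, of which 6 had a mean at or above 5.03. Its 4 brightest gave -0.04, -0.14, -0.06 and -0.05, and the next ones gave 0.39 and -0.49. None of the 156 passed when each probe set was tested singly (lowest limma adjusted p = 0.0892). An unadjusted limma p under 0.05 was found for 27 of the 156, and the share over all probe sets was not computed.

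The rest of the machinery that makes and uses the mitochondrial ribosome was read from the same fit. Of 7 further ribosomal proteins with other symbols, 4 were measured and 0 passed by limma. They were Gadd45gip1 (0.21), Chchd1 (0.13), Dap3 (0.07) and Ptcd3 (-0.04), with a median of 0.10 beside the 0.09 of the 76. Of 31 genes of ribosome assembly and ribosomal RNA modification 25 were measured, 0 passed and 8 were positive (median -0.08). Mpv17l2, a membrane protein needed for ribosome assembly, differed by 0.38 (limma adjusted p = 0.120), while the ribosomal RNA methyltransferases Mrm1 and Nsun4 differed by -0.57 and -0.45 (limma adjusted p = 0.218 and 0.264).

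Translation factors and the enzymes that charge mitochondrial transfer RNA followed. Among 12 of 15 translation factors, 0 passed and 5 were positive (median -0.06), and the initiation factor Mtif2 averaged 6.84 ± 0.10 in OVE26 arrays (SD, n = 5) and 7.18 ± 0.05 in FVB arrays (SD, n = 4), with a difference of -0.34 (limma adjusted p = 0.126). The list median was 0.018 with array weights and 0.015 without OVE26 4. Of 19 of 21 aminoacyl-tRNA synthetases and partners, 1 was lower, 18 did not pass and 4 were positive (median -0.05, or -0.13 without FVB 2 and -0.15 after quantile normalization). Nars2, which charges mitochondrial tRNA with asparagine, had 7.62, 7.58, 7.09, 7.14 and 7.48 in OVE26 arrays and 8.32, 8.09, 8.14 and 8.03 in FVB arrays. All OVE26 arrays lay below all FVB arrays, and Nars2 fell by 0.76 (SE 0.14, limma adjusted p = 0.0494). It passed in 2 of 9 fits with 1 array left out, with limma adjusted p from 0.0465 to 0.163 over the 9, and it missed the threshold in the fits without OVE26 1, OVE26 3, OVE26 4, OVE26 5, FVB 1, FVB 3 or FVB 4. It also missed it with a sex covariate (limma adjusted p = 0.0986), with the mean of its probe sets (0.0512) and after quantile normalization (0.0510).

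Genes that copy and read mitochondrial DNA, and the nuclear regulators of mitochondrial genes, had 0 passing by limma. Of 21 of 22 genes of mitochondrial DNA expression 9 were positive (median -0.05, or 0.002 with array weights). Top1mt, the mitochondrial topoisomerase, differed by -0.66 (limma adjusted p = 0.116), and Tfam, which packages mitochondrial DNA and starts its transcription, by -0.17 (limma adjusted p = 0.406). Of the 11 regulators 5 were positive (median -0.09, or 0.025 without OVE26 2). Ppargc1a, the coactivator of mitochondrial biogenesis, had 8.34, 8.44, 8.22, 8.82 and 7.90 in OVE26 arrays and 6.35, 8.34, 5.99 and 7.60 in FVB arrays, a difference of 1.28 (limma adjusted p = 0.205). FVB 2 lay inside the OVE26 range and the other 3 FVB arrays below it. Myc differed by 1.63 (limma adjusted p = 0.117), Esrrg by 1.00 (limma adjusted p = 0.208) and Pprc1 by -0.40 (limma adjusted p = 0.332). The mean difference over the 11 regulators was 0.24, opposite in sign to their median.

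Nuclear genes for the respiratory chain, whose partners the mitochondrial ribosome makes, were mostly positive. Complex I had 31 of 33 measured genes positive (median 0.18) with 0 passing by limma, and complex II had 4 of 4 (median 0.14) with 0 passing. Complexes III, IV and V had 29 of 32 positive (median 0.28), with 1 higher and 31 not passing. That gene, Uqcr10 of complex III, had 8.90, 9.002, 9.23, 9.34 and 9.22 in OVE26 arrays and 8.07, 8.31, 8.29 and 8.66 in FVB arrays, and rose by 0.80 (SE 0.14, limma adjusted p = 0.0450). It passed in the fits without OVE26 1 or FVB 2 and missed the threshold in the other 7 fits with 1 array left out (limma adjusted p up to 0.143), as it did with a sex covariate (0.0871) or with array medians made equal (0.0567). Cytosolic ribosomal proteins had 43 of 50 positive (median 0.17) with 0 passing, and other mitochondrial proteins had 10 of 16 (median 0.08) with 0 passing. With the cytosolic ribosomal mean made equal, the medians were 0.04 for complex I, 0.14 for complexes III, IV and V and -0.05 for the 76 genes. The difference between these lists and the 76 genes was not tested.

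**Figure D5:**
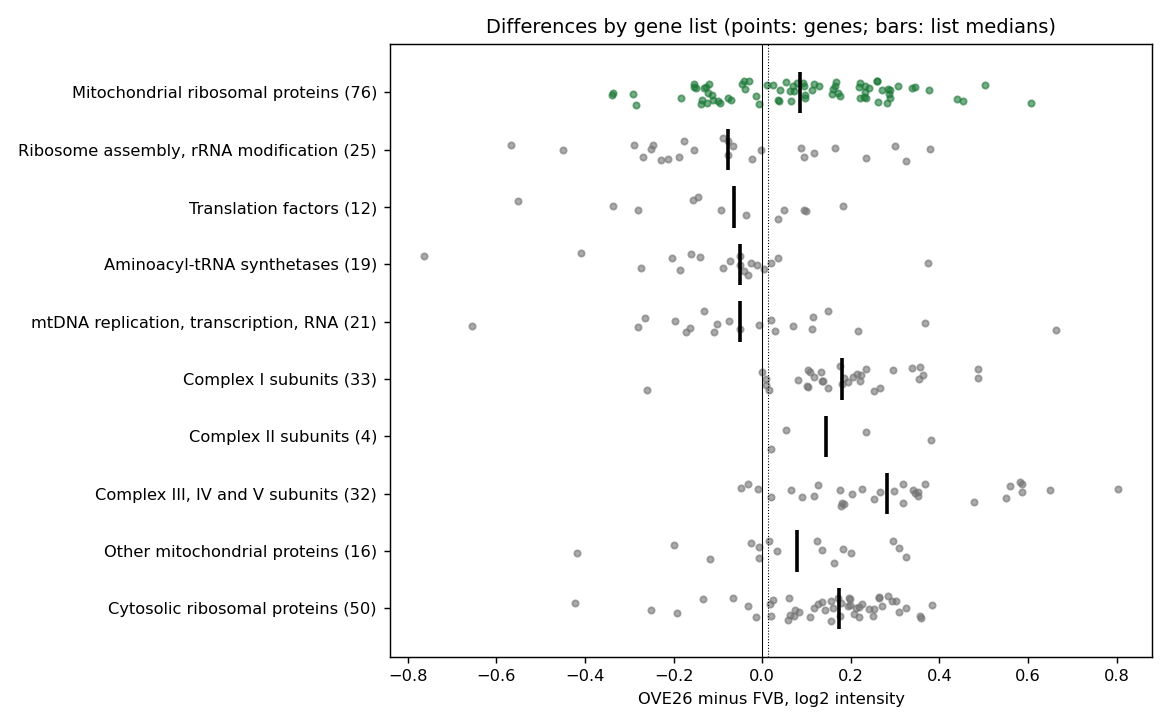
Difference in log2 intensity (OVE26 minus FVB) of each gene (points) by list, with list medians as bars, a solid line at 0 and a dotted line at the median of all genes (0.01). Mitochondrial ribosomal proteins (green) have a median of 0.09, between assembly, translation and tRNA-charging genes (-0.08 to -0.05) and complexes III, IV and V (0.28).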

How the data were processed

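RNA of sorted podocytes was amplified, biotin-labelled and read on 1 array per mouse, per the labels' protocols. Per the submitters' processing notes RMA and Partek were used, and the sources used here give no version, setting or batch. The range of the deposited intensities showed them to be linear. The log2 of the deposited intensity was taken before any test. Of 45101 probe sets, 64 controls were left out, 34945 had 1 symbol in the platform annotation, 932 several and 9160 none, and 34741 matched the reference gene table with 0 symbols updated. The brightest probe set per gene over the 9 arrays was used (18193 genes, no filter on dim genes). Another 4 probe sets name a member together with a second gene and were left out, so Mrpl30 and Mrpl53 are not among the 76.

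Groups were compared with limma 3.58.1 (R 4.3.3). The fit (lmFit, then eBayes with 2.94 prior degrees of freedom) held all 9 arrays and no term but group. Its 2-sided p-values were adjusted by Benjamini and Hochberg's method over 18193 genes, and 0.05 was the threshold. The procedure was tested on simulated data. P-values rest on the spread between mice, which also holds differences between sorts and amplifications. Genes were named as the 12 of smallest p, the 6 strongest and 6 weakest signals, 9 genes with a known role, the 4 largest SDs in each group, genes whose probe sets run in both directions, and up to 4 genes of smallest p per list. The members, lists and rules were chosen with earlier results of these data known. Promoter sequences are from RefSeq, 1 entry per gene. Alternatives covered dim genes, probe set choice, scaling, variance model, array weights, replicate number, sex, single arrays and thresholds.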

Additional observations from a re-analysis of the deposited data

Results flagged for a closer look

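In 5 of the 96 groups of arrays tested, the gap between 1 array and its neighbours was larger than Dixon's critical value, and chance gives about 1 in 20. Mrpl13 was at 9.19 in OVE26 2, with the other OVE26 arrays from 8.39 to 8.58. Mrpl40 was at 7.27 in FVB 1, with the other FVB arrays from 7.75 to 7.84. The remaining 3 were all in OVE26 4. Mrps2 was low there, at 7.36 against 7.76 to 7.91 in the other OVE26 arrays. Mrps23 was high, at 7.58 against 6.94 to 7.13, and Mrps30 was high, at 8.22 against 7.51 to 7.70.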

How the results depend on the processing

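Members passing at 0.05 stayed at 0 higher and 0 lower in every alternative. Thresholds of 0.01 and 0.1 were applied to the main fit only, with 0 passing, which at 0.01 follows from the 0 at 0.05. The lowest limma adjusted p of a member was 0.0645 (Mrpl12 without FVB 2). It was also under 0.1 with array weights (0.0671), the mean of probe sets (0.0774), without dim genes (0.0857) and with every probe set singly (0.0892). The members' median of 0.09 became 0.013 with every probe set singly, -0.014 with array medians equal and -0.054 with the cytosolic ribosomal mean equal, and 0.05 to 0.11 with 1 array left out (0.05 without OVE26 1 and without OVE26 5). Deviations of same-numbered mice correlated with r of 0.19, 0.07, -0.28 and 0.02. The labels do not say whether same-numbered mice were handled together, and these correlations cannot show it either way. With the replicate block 19 genes passed in all, 0 of them members, 2 of 4 numbers correlated best with their own, and the members' median was 0.05. Over all genes 110 passed, against 396 with array weights, 179 with a robust prior, 166 without dim genes, 41 with the sex covariate and 8 (without FVB 3) to 367 (without FVB 2) with 1 array left out. Of 227 genes on the pathway lists and cytosolic ribosomal proteins, 1 was higher and 1 lower. The higher count was 2 with array weights and at threshold 0.1, 0 to 3 with 1 array left out, and 0 with probe sets singly, array medians equal, replicate block, sex covariate or threshold 0.01. The lower count was 0 to 1 with 1 array left out, and 0 with the mean of probe sets, probe sets singly, quantile normalization, the cytosolic mean equal, replicate block, sex covariate or threshold 0.01. List medians turned in sign for translation factors (array weights, without OVE26 4), mitochondrial DNA expression (array weights), regulators (without OVE26 2), the 4 ribosomal proteins with other symbols (-0.039, cytosolic mean equal) and other mitochondrial proteins (down to -0.062, both scalings), and no sign turned for assembly, tRNA charging, the respiratory complexes or cytosolic ribosomal proteins. Of 47 named members 28 kept their direction throughout, as did 11 of the 12 with the smallest p; none of those that turned had passed the test, and the cause was not tested. Turned values were, with quantile normalization, Mrpl14 -0.02 and Mrps34 -0.08; with array medians equal, Mrpl14 -0.045, Mrpl42 -0.037, Mrpl58 -0.03, Mrps18c -0.007, Mrps33 -0.006, Mrps34 -0.088 and Mrps5 -0.003. With the cytosolic mean equal they were Mrpl14 -0.085, Mrpl35 -0.011, Mrpl42 -0.077, Mrpl58 -0.071, Mrps15 -0.029, Mrps18c -0.047, Mrps33 -0.047, Mrps34 -0.129 and Mrps5 -0.043, and with the replicate block Mrpl14 -0.001. With the mean of probe sets they were Mrpl28 0.152, Mrpl35 -0.2, Mrpl50 0.147, Mrpl51 -0.233, Mrpl57 -0.348, Mrpl58 -0.067, Mrps2 0.063, Mrps25 -0.197 and Mrps5 -0.259. Array weights gave Mrpl50 0.016, and the sex covariate Mrpl58 -0.014 and Mrps18b 0.082. With 1 array left out the ranges crossed 0 for Mrpl14 (-0.001 to 0.174), Mrpl15 (-0.161 to 0.048), Mrpl3 (-0.163 to 0.058), Mrpl50 (-0.085 to 0.054), Mrpl58 (-0.009 to 0.177), Mrps15 (-0.024 to 0.235), Mrps18b (-0.213 to 0.083), Mrps2 (-0.118 to 0.021), Mrps34 (-0.008 to 0.036), Mrps36 (-0.163 to 0.017) and Mrps5 (-0.038 to 0.162). The weakest signal of the 76, that of Mrpl14, averaged 4.82, against a 25th percentile of array values of 3.31.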

Other observations

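The 4 probe sets that name a mitochondrial ribosomal protein together with a second gene were described and not tested. The brighter probe set of Mrpl30 and Gm6238 averaged 9.34 ± 0.07 in OVE26 arrays (SD, n = 5) and 9.23 ± 0.10 in FVB arrays (SD, n = 4), a difference of 0.11, and the dimmer one averaged 4.90 in both groups. That of Mrpl53 and Ccdc142 averaged 7.33 ± 0.22 in OVE26 arrays (SD, n = 5) and 7.2 ± 0.22 in FVB arrays (SD, n = 4), a difference of 0.13. That of Mrps34 and Nme3 had 6.98, 7.25, 6.24, 6.24 and 7.21 in OVE26 arrays and 6.46, 7.01, 6.88 and 6.67 in FVB arrays. It spread over 1 log2 unit among OVE26 mice, where the probe set of Mrps34 alone had an SD of 0.02.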
